A study of Mus musculus with 10 samples.

Results

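The genes described here encode the matrix metalloproteases (MMPs), the ADAM and ADAMTS proteases, the ADAMTS-like proteins and the tissue inhibitors of metalloproteases (TIMPs). They were chosen by gene symbol alone, which gave 59 of the 28165 genes in the deposited count table: 13 MMP, 18 ADAM, 19 ADAMTS, 5 ADAMTS-like and 4 TIMP genes. RNA came from aortic smooth muscle cells of mice at embryonic day 15.5, sorted as positive for a green fluorescent Acta2 reporter and negative for the endothelial surface protein CD31 and the dead-cell dye DAPI. The embryos were offspring of an Eln+/- intercross, and there were 5 libraries of Eln+/+ cells and 5 of Eln-/- cells, all carrying Acta2-GFP and none treated. Eln encodes elastin, the core protein of the elastic fibre, and the comparison asks how its loss alters the expression of the enzymes that cut and remodel matrix. The labels do not describe the Eln null allele, nor how many embryos stand behind a library, nor whether replicates are separate embryos, so a p-value here reflects only how far these libraries varied, which may be technical.

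MMPs are zinc-dependent proteases, secreted or anchored in the membrane, that are made as inactive precursors and together can cut most components of the extracellular matrix, elastin and collagens among them. TIMPs are small secreted proteins that block the active site of MMPs and of some ADAM and ADAMTS enzymes, so the amounts of both bear on how fast matrix is turned over. ADAMs are membrane proteins, several of which release growth factors, cytokines and receptors from the cell surface, ADAMTS enzymes are secreted and act on proteoglycans, procollagens and other matrix proteins, and ADAMTS-like proteins share the ancillary domains of ADAMTS enzymes but have no protease domain. Transcript levels say nothing of how much of an enzyme is active.

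Total estimated counts ranged from 26951733 to 63866416 per library. Counts of Eln itself lay between 2409 and 105866 in Eln+/+ cells, whereas Eln-/- replicates 1 to 5 had 36, 1, 0, 1 and 0. Eln+/+ replicate 1, Eln-/- replicate 4 and Eln-/- replicate 5 stood apart with the fewest detected genes, 15089, 15595 and 15925 against 18157 to 22951 in the other 7. The smooth muscle markers Acta2 and Tagln were at 473 to 1742 and 129 to 1452 CPM (counts scaled to the effective library size), and the 6 smooth muscle markers summed to 747 to 2928 CPM. The other 4 were uneven: Cnn1 ran from 16.6 to 352 CPM, Mylk from 6.97 to 119 CPM, Myh11 from 0.0377 to 119 CPM and Smtn from 0 in Eln+/+ replicate 1 to 187 CPM, all 4 highest in Eln-/- replicate 1. Fibroblast markers were also present in all libraries, with a summed level over 7 genes of 1450 to 9163 CPM in Eln+/+ and 759 to 15393 CPM in Eln-/-. The macrophage markers, 7 genes, summed to at most 12.2 CPM, with Ptprc at 0 in 7 libraries, and the endothelial markers, 6 genes, to at most 51.1 CPM, with Pecam1 at 0 in 2 libraries. Cardiomyocyte markers, 5 genes, summed to 171 CPM in Eln+/+ replicate 2 and to at most 58.1 CPM elsewhere. In bulk RNA, fewer cells of a type and less RNA per cell cannot be told apart.

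The set was led by Mmp23, and a short list of other genes carried most of the remaining transcripts. Levels of different genes were compared as CPM per kb of the longest coding transcript, which allows for transcript length. In Eln+/+ the order was Mmp23 at 165 ± 64.2, Timp1 at 48.3 ± 25.3, Mmp2 at 29.8 ± 32.4, Adamts1 at 18.0 ± 15.7, Adam10 at 14.6 ± 8.56, Mmp16 at 13.6 ± 6.93, Timp3 at 11.1 ± 11.4, Mmp11 at 10.4 ± 6.98, Mmp14 at 9.72 ± 10.6 and Timp2 at 7.23 ± 3.20 CPM per kb (mean ± SD, n = 5 in each genotype here and below). From Timp1 downwards, neighbours in this order did not differ beyond their spread. In Eln-/- the first 4 were the same genes in the same order, at 161 ± 66.3 for Mmp23, 53.1 ± 24.9 for Timp1, 35.5 ± 55.0 for Mmp2 and 32.5 ± 47.0 CPM per kb for Adamts1. Of the 59 genes, 16 had at least 10 counts in all 10 libraries, and they included the 4 TIMP genes, 7 of the ADAMTS genes and 3 of the ADAM genes but, among MMP genes, only Mmp23. The low-count filter kept 37 genes for testing. The other 22 were not tested. Most of them had few counts, but Adamts7, Adamts14 and Adamtsl2 reached 12.4, 13.9 and 12.1 CPM in Eln-/- replicate 1 and had at least 10 counts in only 4, 3 and 4 libraries. In all, 12 of the 59 reached 10 counts in fewer than 3 libraries, 4 of them (Mmp9, Mmp24, Mmp25 and Adamts13) in none, and Mmp25 had no count at all. Mmp12, the macrophage elastase, was not among the 59 genes found by symbol and so was not analysed here.

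**Figure D1:**
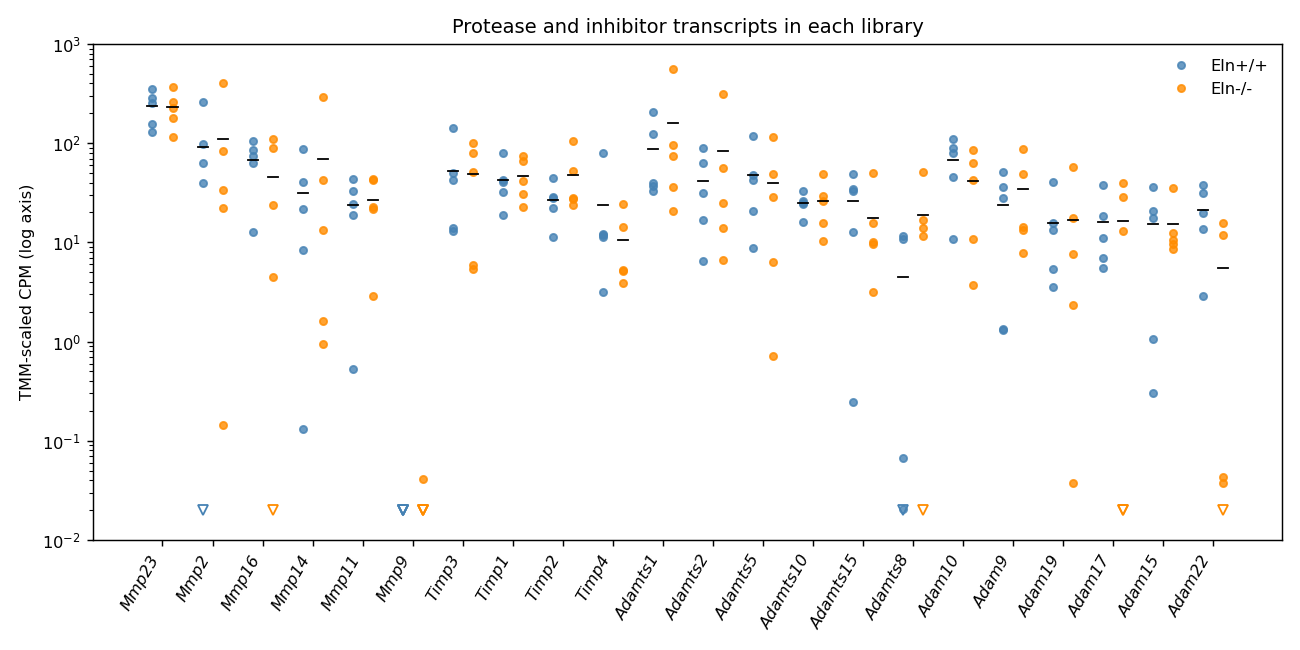
Level of each named gene in TMM-scaled CPM on a log axis, 1 point per library, Eln+/+ in blue and Eln-/- in orange, with group means as black bars and open triangles for libraries under 0.02 CPM. Mmp23, Timp1 and Adamts10 sit in narrow bands, whereas Mmp2, Mmp14 and Mmp16 run from near 0 to over 100 CPM within a genotype.

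Promoter sequence is shown for 3 genes that stand at opposite ends of the spread between libraries, a choice made after the values were seen. They are Mmp23 and Timp1, among the most even, and Mmp14, the most uneven named gene with a mean of at least 10 CPM. Mmp2 was chosen as well but had no promoter entry. Each run is the 250 bases before the RefSeq start site (GRCm38.p6), 5′ to 3′ on the gene's strand. Capitals mark a GC box (GGGCGG, bound by Sp factors) or a CAAT box (CCAAT), searched on both strands together with the AP-1 element TGANTCA and the TATA box TATAAA, for which these 3 held no match.
Mmp23 (chr4:155653385-155653634, minus strand): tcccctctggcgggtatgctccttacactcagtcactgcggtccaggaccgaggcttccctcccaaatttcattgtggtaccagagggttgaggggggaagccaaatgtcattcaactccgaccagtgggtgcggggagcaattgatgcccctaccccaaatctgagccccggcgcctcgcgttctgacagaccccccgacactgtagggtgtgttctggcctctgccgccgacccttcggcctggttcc
Timp1 (chrX:20869916-20870165, plus strand): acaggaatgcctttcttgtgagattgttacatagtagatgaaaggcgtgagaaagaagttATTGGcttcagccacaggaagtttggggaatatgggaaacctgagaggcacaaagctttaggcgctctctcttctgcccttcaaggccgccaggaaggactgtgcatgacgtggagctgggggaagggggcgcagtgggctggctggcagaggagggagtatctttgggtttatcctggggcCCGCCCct
Mmp14 (chr14:54431348-54431597, plus strand): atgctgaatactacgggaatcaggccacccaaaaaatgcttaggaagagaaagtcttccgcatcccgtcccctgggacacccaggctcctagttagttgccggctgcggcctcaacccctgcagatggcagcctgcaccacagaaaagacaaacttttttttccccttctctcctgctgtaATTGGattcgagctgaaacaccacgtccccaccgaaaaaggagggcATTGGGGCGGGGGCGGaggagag
The Mmp23 window held none of the 4 motifs. Timp1 had 1 GC box, 8 bases before the start, and 1 CAAT box, 190 bases before it, both on the other strand. Mmp14 had 2 GC boxes on its own strand, 19 and 13 bases before the start, and 2 CAAT boxes on the other strand, 69 and 23 bases before it, and the nearer CAAT box overlaps a GC box. Of the 34 genes of the set with an entry in the promoter table, 24 (70.6%) held a GC box against 32.7% of 32851 promoters, 9 a CAAT box against 33.8%, 3 a TATA box against 12.4% and 1 an AP-1 element (Adam19) against 6.75%. Their median GC content was 64.8% against 52.4% for all promoters, and the part of base content in the GC box share was not tested. Each gene of the set entered with 1 promoter, the one nearest its annotated start, whereas the 32851 promoters were not limited to 1 per gene. For Mmp11, Adam1a and Adamts20 that promoter's start lay 3994, 23787 and 61068 bases from the annotated start. A match is a run of letters, not a measured binding site.

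Mmp23 was the most evenly expressed of the named genes. It encodes an atypical MMP that is anchored by its amino-terminal part and released by cleavage, and it has a cysteine array and an immunoglobulin-like domain in place of the hemopexin domain of most MMPs. Its gene spans bases 155650655 to 155653384 of chromosome 4 (mm10, minus strand). Mmp23 was at 352, 130, 157, 256 and 286 CPM in Eln+/+ and, in the same replicate order, at 117, 179, 225, 260 and 371 CPM in Eln-/-. The genotypes covered the same range, and the coefficient of variation over the 10 libraries was 37.8%, the lowest of the 21 named genes with a mean of at least 10 CPM. The log2 fold change of Eln-/- over Eln+/+ was -0.04 (SE 0.45).

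Mmp2, the gelatinase that also cuts elastin, behaved otherwise (chromosome 8, 92827291 to 92853420, plus strand). Mmp2 was at 0, 258, 62.8, 98.1 and 39.9 CPM in Eln+/+ and, in the same replicate order, at 407, 83.8, 21.9, 0.145 and 33.8 CPM in Eln-/-. Eln-/- replicate 1 and Eln+/+ replicate 2 were high, and Eln+/+ replicate 1 and Eln-/- replicate 4, with 0 and 2 counts, lacked the transcript almost wholly. A count of 0 in Eln+/+ replicate 1 allows up to 0.198 CPM by counting error alone. The log2 fold change of Mmp2 was 0.25 (SE 1.55) and turned to -1.40 without Eln-/- replicate 1. Mmp14, the membrane-type MMP that activates the Mmp2 precursor in a complex with Timp2, was high in the same libraries and lowest in Eln+/+ replicate 1 and Eln-/- replicate 5 (chromosome 14, 54431612 to 54445364, plus strand). Mmp14 was at 0.132, 86.5, 21.8, 40.6 and 8.44 CPM in Eln+/+ and at 290, 42.4, 13.5, 1.60 and 0.942 CPM in Eln-/- replicates 1 to 5. Its log2 fold change of 1.14 (SE 1.49) turned to -1.11 without Eln-/- replicate 1. The summed fibroblast markers were also highest, 15393 CPM, in Eln-/- replicate 1 and lowest, 759 CPM, in Eln-/- replicate 4. Of the 7, Col1a1 (9699 CPM), Col3a1 (3300 CPM) and Pi16 (183 CPM) peaked in Eln-/- replicate 1, whereas Dcn, Lum, Pdgfra and Dpt peaked in Eln+/+ libraries. The smooth muscle sum was highest in Eln-/- replicate 1 as well, at 2928 CPM, and the part of either marker list in the result was not tested.

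Mmp16, a second membrane-type enzyme, was at 12.7, 106, 74.7, 84.7 and 63.7 CPM in Eln+/+ and at 109, 88.6, 23.5, 4.43 and 0 CPM in Eln-/- replicates 1 to 5 (a log2 fold change of -0.60 with SE 1.25). Mmp11, a stromelysin of stromal cells, was at 0.529, 43.2, 18.8, 24.2 and 32.6 CPM in Eln+/+ and at 42.6, 43.8, 22.5, 2.90 and 21.6 CPM in Eln-/- (a log2 fold change of 0.16 with SE 0.91). The genotypes overlapped for both, and exons of Mmp11 overlap those of Chchd10 on the other strand, so that without a known strand setting some reads cannot be assigned. Mmp9, the other gelatinase, had 3 counts in Eln-/- replicate 1 and 0 in the other 9 libraries. Among the scarcer MMP genes, Mmp19 was at 2.14 ± 2.36 CPM in the Eln+/+ libraries and 0.468 ± 0.704 CPM in the Eln-/- libraries and Mmp15 at 0.174 ± 0.390 and 1.66 ± 2.57 CPM.

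All 4 inhibitor genes were expressed in all libraries. Timp1, a secreted inhibitor of most MMPs, lies on the X chromosome from 20870166 to 20874735 (plus strand), inside the span of Syn1. Timp1 was at 78.9, 19.0, 32.0, 42.9 and 40.8 CPM in Eln+/+ and at 22.8, 30.9, 65.7, 41.4 and 73.6 CPM in Eln-/- replicates 1 to 5, with full overlap (a log2 fold change of 0.13 with SE 0.50). Eln+/+ replicate 2 and Eln-/- replicate 1, the libraries high in Mmp2 and Mmp14, were the lowest of their genotype for both Timp1 and Mmp23. Timp2, which both inhibits MMPs and takes part in Mmp2 activation, was at 11.3, 44.2, 28.4, 22.4 and 27.9 CPM in Eln+/+ and at 105, 28.2, 24.0, 27.2 and 52.2 CPM in Eln-/-. Its log2 fold change was 0.82 (SE 0.56) and did not pass the threshold, and it was 0.29 without Eln-/- replicate 1. Timp3, the inhibitor that binds to matrix and also blocks Adam17 and aggrecan-cutting ADAMTS enzymes, was at 13.8, 144, 49.5, 42.6 and 13.0 CPM in Eln+/+ and at 101, 79.7, 51.7, 5.37 and 5.96 CPM in Eln-/- (a log2 fold change of -0.11 with SE 0.91, and 0.72 without Eln+/+ replicate 2). Timp4 was at 79.5, 12.2, 3.13, 11.8 and 11.4 CPM in Eln+/+ and at 3.87, 14.3, 5.31, 5.08 and 24.2 CPM in Eln-/-. Eln+/+ replicate 1 alone carried the difference in Timp4 means, since the log2 fold change of -1.16 (SE 0.90) became 0.15 without it. That library also held the most erythroid transcripts, a summed 18877 CPM over 6 genes against 22.3 to 5150 CPM elsewhere. The summed neutrophil markers were highest there too, at 64.8 CPM against at most 23.7 CPM elsewhere. So were the glial and neural markers, at 115 CPM, nearly all from S100b, against at most 48.7 CPM. In each of these lists Eln-/- replicate 4 came next, at 5150, 23.7 and 48.7 CPM, with Timp4 there at 5.08 CPM. The part of these lists was not tested. Exons of Timp3 and Timp4 overlap those of Syn3 and Syn2 on the other strand.

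The mean balance of inhibitor to protease transcripts differed less between the 2 genotypes than it varied between libraries. Summed per kb, TIMP transcripts came to 110, 66.1, 54.9, 65.7 and 58.5 in Eln+/+ and to 76.2, 62.1, 92.7, 56.3 and 103 CPM per kb in Eln-/- replicates 1 to 5. MMP transcripts came to 249, 244, 159.5, 252 and 242 in Eln+/+ and to 345, 203, 183, 184 and 279 CPM per kb in Eln-/-. TIMP transcripts were fewer than MMP transcripts in all 10 libraries, with a TIMP to MMP ratio of 0.442, 0.271, 0.344, 0.261 and 0.241 in Eln+/+ and of 0.221, 0.305, 0.507, 0.306 and 0.369 in Eln-/-. On the log2 scale the ratio was -1.72 ± 0.36 in Eln+/+ and -1.60 ± 0.44 in Eln-/-, a difference of 0.11 that is smaller than either SD. An equal balance is not shown by this. Leaving out 1 library at a time gave differences from -0.04, without Eln-/- replicate 3, to 0.26, without Eln-/- replicate 1. No p is given for a sum over chosen genes.

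**Figure D2:**
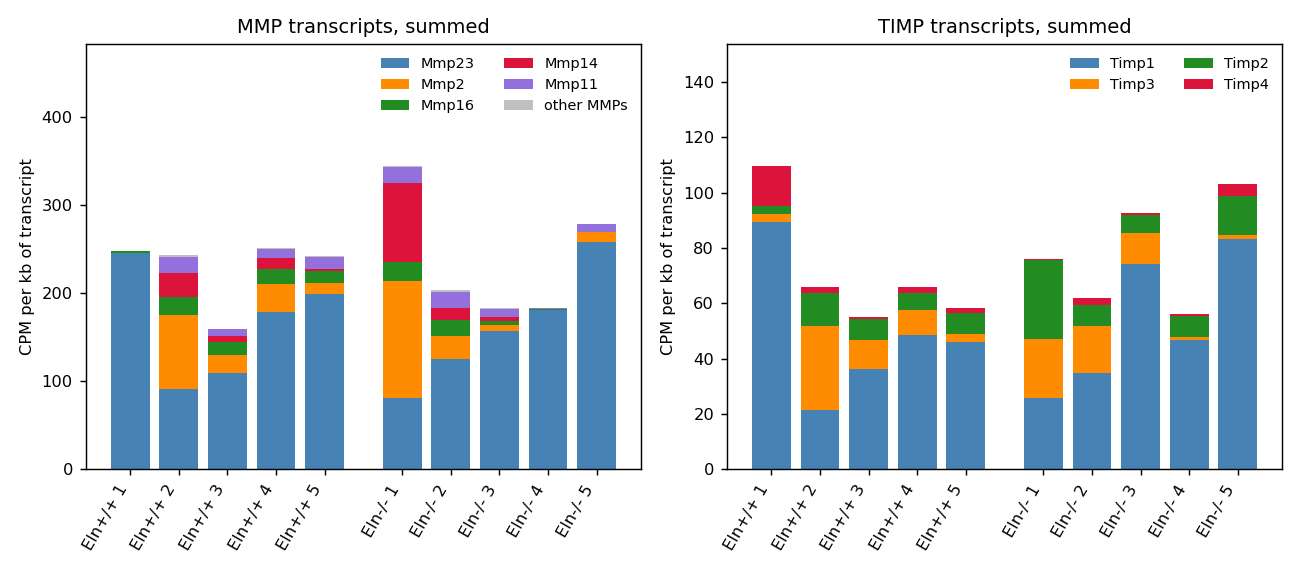
Summed MMP (left) and TIMP (right) transcripts of each library in CPM per kb of transcript, stacked by gene, with both axes starting at 0. Mmp23 and Timp1 fill most of the bars, except in Eln+/+ replicate 2 and Eln-/- replicate 1, where Mmp2, Mmp14, Timp2 and Timp3 take larger parts.

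Mmp23 and Timp1 carried the larger part of these sums in most libraries. Mmp23 made up 98.9%, 37.3%, 68.5%, 71.0% and 82.1% of the MMP sum in Eln+/+, against 23.6%, 61.4%, 85.8%, 98.5% and 92.6% for Eln-/-, both by replicate number. Timp1 made up 32.5% to 83.3% of the TIMP sum. Timp1 was below Mmp23 per kb in all 10 libraries, and the ratio of the 2 genes stayed between 0.232 and 0.474. Without Mmp23 the TIMP to MMP ratio spread out: it was 39.0, 0.433, 1.09, 0.899 and 1.35 in Eln+/+ and 0.289, 0.790, 3.58, 20.2 and 4.96 in Eln-/- replicates 1 to 5. The highest value was then 135-fold above the lowest, against 2.30-fold with Mmp23, and the ratio was below 1 in 4 libraries and above 1 in 6. The high values belonged to Eln+/+ replicate 1 and Eln-/- replicate 4, where Mmp2 and Mmp14 were nearly absent. Gene detection was poorest in this pair, at 15089 and 15595 genes. Eln-/- replicate 5 came next in both respects, with 15925 genes and a ratio of 4.96. Across the remaining 7 the ratio without Mmp23 ran from 0.289 to 3.58. The part of gene detection and transcript length in this spread was not tested.

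**Figure D3:**
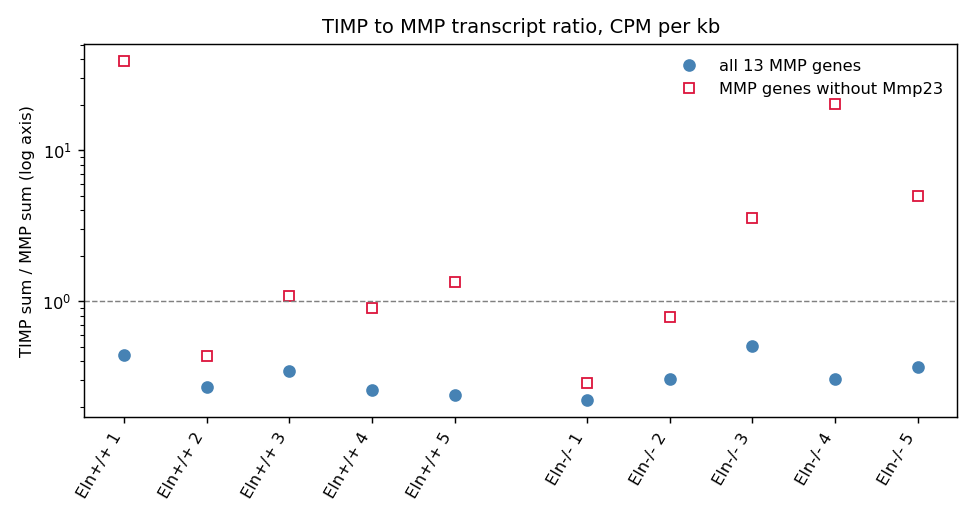
Ratio of summed TIMP to summed MMP transcripts per library (log axis, CPM per kb), with all 13 MMP genes as filled circles and without Mmp23 as open squares; the dashed line marks equal sums. The circles lie between 0.221 and 0.507, the squares between 0.289 and 39.0.

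Among ADAMTS genes, the proteoglycanases Adamts1 and Adamts5 and the procollagen N-propeptidase Adamts2 were abundant. Adamts1, which cuts versican and aggrecan, led the ADAMTS genes per kb in 9 of 10 libraries and lies beside Adamts5 on chromosome 16 (85793827 to 85803113, minus strand). Adamts1 was at 36.9, 207, 33.1, 124 and 39.2 CPM in Eln+/+ and at 566, 74.1, 36.3, 95.9 and 20.8 CPM in Eln-/- replicates 1 to 5. Its mean of 159 ± 230 CPM in Eln-/- against 88.1 ± 76.6 CPM in Eln+/+ rested on Eln-/- replicate 1, and the log2 fold change of 0.85 (SE 0.90) became -0.64 without it. Adamts2, which trims fibrillar procollagens, was at 6.48, 89.9, 17.0, 63.6 and 31.4 CPM in Eln+/+ and at 310, 56.8, 24.8, 6.61 and 14.1 CPM in Eln-/-. Its log2 fold change of 0.99 (SE 1.02) likewise became -0.71 without Eln-/- replicate 1. Adamts5, another enzyme that cuts versican and aggrecan, was at 8.79, 118, 42.3, 47.7 and 20.7 CPM in Eln+/+ and at 116, 49.3, 28.5, 6.39 and 0.716 CPM in Eln-/- (a log2 fold change of -0.24 with SE 1.03, and 0.43 without Eln+/+ replicate 2).

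Adamts10, which binds fibrillin microfibrils, was after Mmp23 the most even of the named genes, with a coefficient of variation of 41.8%. Adamts10 was at 16.1, 24.2, 26.2, 33.0 and 24.8 CPM in Eln+/+ and at 48.5, 29.6, 15.8, 10.3 and 25.9 CPM in Eln-/- replicates 1 to 5 (a log2 fold change of 0.07 with SE 0.51, and -0.29 without Eln-/- replicate 1). Adamts15, a proteoglycanase, was at 12.7, 48.8, 0.244, 34.7 and 32.8 CPM in Eln+/+ and at 50.2, 15.6, 10.1, 9.51 and 3.17 CPM in Eln-/- (a log2 fold change of -0.54 with SE 1.03). Its neighbour on chromosome 9, Adamts8, was at 0, 11.6, 0.0203, 10.8 and 0.0668 CPM in Eln+/+ and at 51.1, 16.8, 14.0, 0 and 11.5 CPM in Eln-/-. Thus 4 Eln-/- libraries and 2 Eln+/+ libraries had more than 10 CPM of Adamts8, and the log2 fold change of 2.05 had an SE of 1.82. Exons of Adamts8 overlap those of Gm29724 on the other strand. By CPM not adjusted for length, the next ADAMTS genes were Adamts4 at 9.61 ± 10.6 CPM in the Eln+/+ libraries and 9.44 ± 7.07 CPM in the Eln-/- libraries and Adamts12 at 6.85 ± 8.97 and 9.66 ± 19.0 CPM.

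Among ADAM genes, the sheddases came first. Adam10, which cleaves Notch receptors among other substrates, led the ADAM genes per kb in 7 of 10 libraries (chromosome 9, 70678997 to 70780229, plus strand). Adam10 was at 10.9, 88.5, 111, 80.1 and 45.7 CPM in Eln+/+ and at 85.4, 63.3, 42.0, 3.70 and 10.9 CPM in Eln-/- replicates 1 to 5 (a log2 fold change of -0.71 with SE 0.81). The low libraries of both genotypes were the 3 with the fewest detected genes. Adam17, which releases tumour necrosis factor and ligands of the epidermal growth factor receptor, was at 6.88, 38.2, 11.1, 18.3 and 5.46 CPM in Eln+/+ and at 39.3, 28.8, 0, 0 and 13.1 CPM in Eln-/-. The 0 values of Adam17 in Eln-/- replicates 3 and 4 allow up to 0.0639 and 0.218 CPM, and its log2 fold change was 0.02 (SE 1.51). Exons of Adam17 overlap those of Iah1 on the other strand. Adam9 was at 1.32, 51.4, 1.30, 36.0 and 27.7 CPM in Eln+/+ and at 86.8, 49.0, 14.2, 7.77 and 13.3 CPM in Eln-/- (a log2 fold change of 0.54 with SE 1.03, and -0.17 without Eln-/- replicate 1).

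Adam19, a sheddase with a role in heart development, was at 5.36, 40.4, 3.51, 13.4 and 15.7 CPM in Eln+/+ and at 57.4, 17.5, 2.34, 7.62 and 0.0377 CPM in Eln-/- replicates 1 to 5 (a log2 fold change of 0.11 with SE 1.23, and -1.20 without Eln-/- replicate 1). Adam15 was at 1.06, 20.9, 0.304, 35.8 and 17.6 CPM in Eln+/+ and at 35.4, 10.7, 12.4, 9.59 and 8.52 CPM in Eln-/- (a log2 fold change of 0.02 with SE 1.03, and -0.56 without Eln-/- replicate 1). Exons of Adam19 and Adam15 overlap antisense or uncharacterised genes on the other strand. Adam22, which lacks a functional protease site and is best known from neurons, was at 13.6, 37.9, 31.4, 19.6 and 2.90 CPM in Eln+/+ and at 15.5, 12.0, 0.0426, 0 and 0.0377 CPM in Eln-/-. Its log2 fold change of -1.93 (SE 1.58) is the largest in size of the ADAM genes described library by library, and 2 of the 3 Eln-/- libraries near 0 were among those with few detected genes. Adam12, a sheddase of mesenchymal cells, followed at 4.70 ± 3.65 and 6.68 ± 9.27 CPM, and Adam8, a sheddase of myeloid cells that was not tested, was at 0 in all Eln+/+ libraries and reached 1.14 CPM in Eln-/- replicate 2.

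The ADAMTS-like genes were low to moderate. Adamtsl1 was at 4.69 ± 3.55 CPM in the Eln+/+ libraries and 12.7 ± 15.0 CPM in the Eln-/- libraries, with 38.8 CPM in Eln-/- replicate 4 (a log2 fold change of 1.44 with SE 1.14, and 0.42 without that library). Adamtsl5, whose protein binds fibrillin, was at 10.9 ± 4.61 and 6.53 ± 4.06 CPM (a log2 fold change of -0.74 with SE 0.76).

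Between genotypes, none of the 37 tested genes passed an adjusted p of 0.05 in edgeR's quasi-likelihood test, in which 0.0% of the 15718 genes tested passed. Eln itself did not pass, although it had 2409 to 105866 counts in Eln+/+ and at most 36 in Eln-/-. The smallest adjusted p of edgeR's test over all genes was 0.152. Failing to pass therefore does not show that a gene is unchanged. In that test no gene of the set had an unadjusted p under 0.05, against 0.515% of all genes, and the smallest among them was 0.153, for Mmp19. Other fits gave more unadjusted p-values under 0.05, none of which held after adjustment. limma-voom with sample quality weights gave 5 of 37 (Mmp19, Adamts6, Adamts9, Adamtsl4 and Adamtsl5) against 6.51% of all genes. The fit with no low-count filter gave 3 of 58 (Adam1a, Adam8 and Adam28) against 7.83%, and the fit without Eln-/- replicate 1 gave 1 of 37 (Mmp19) against 1.07%. The Benjamini-Hochberg adjusted p was 1.00 for each of the 37 genes. DESeq2 and limma-voom with sample quality weights also called 0 of the 37, where they called 0.0392% and 0.0445% of all genes. In none of the 37 did the libraries of one genotype lie wholly above or wholly below those of the other, against 0.14% of all genes for Eln-/- above and 0.165% for Eln-/- below. Fold changes were positive for 22 genes and negative for 15, with a median log2 fold change of 0.11 against 0.02 over all genes tested. By class, the median was 0.16 for 7 MMP genes, 0.02 for 11 ADAM genes, 0.49 for 11 ADAMTS genes, -0.01 for 4 ADAMTS-like genes and 0.01 for 4 TIMP genes. The SE of the log2 fold change was 1.12 in the median and ran from 0.45 to 2.05. Differences of the size seen were therefore not detectable at this spread, and their absence is not shown.

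**Figure D4:**
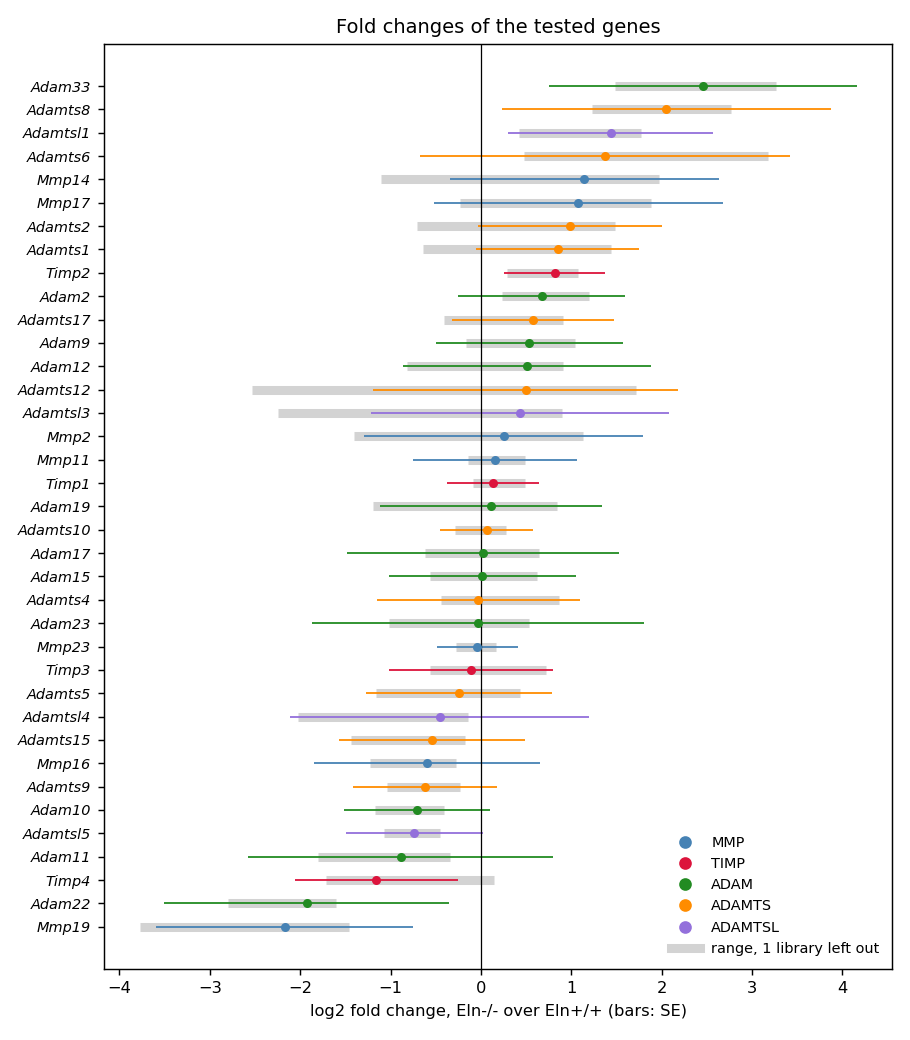
Log2 fold change of Eln-/- over Eln+/+ for the 37 tested genes, coloured by class, with SE as thin bars and, in grey, the range when 1 library at a time was left out. The SE bars of 30 genes cross 0, and the grey range reaches from -1.11 to 1.98 for Mmp14 and from -0.28 to 0.17 for Mmp23.

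One library weighed heavily on the direction of the fold changes. Eln-/- replicate 1 was the highest of the 10 libraries for 20 of the 37 genes and Eln+/+ replicate 2 for another 5. These libraries also had the most detected genes, 22951 and 21864, and the matching share over all genes was not counted. Without Eln-/- replicate 1, 8 of the 37 fold changes were positive and 29 negative, the median was -0.71 against -0.13 over all genes tested, and 15 genes went from positive to negative. Over all genes tested, 43.8% of fold changes were then positive, against 51.5% with all 10 libraries. Without both Eln-/- replicate 1 and Eln+/+ replicate 2, 10 were positive and 23 negative among 33 genes tested, where 47.8% of all genes tested were positive. When any single library was left out, the fold change stayed positive for Timp2, Adam2, Adam33, Adamts6, Adamts8 and Adamtsl1 and negative for Mmp16, Mmp19, Adam10, Adam11, Adam22, Adamts9, Adamts15, Adamtsl4 and Adamtsl5, none of them past the threshold, and it changed sign for the other 22 genes.

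The 3 libraries with the fewest detected genes, 1 from Eln+/+ and 2 from Eln-/-, set the lower end for many genes. All 3 lay below the other 7 libraries for Adam10, Adamts2, Adamts5, Mmp14 and Mmp16, which is 5 of 37 genes where 21.5% of all genes tested did so. All 3 lay above the other 7 for 1 gene, Adam2 (16.0% of all genes), known for its role in sperm. Mean levels were lower in the 3 libraries for 30 of the 37 genes, where 72.1% of all genes with a length were lower, with a median log2 ratio of -1.79 against -1.09 over those 11869 genes, the tested ones that have a coding transcript length. In all genes this ratio differed with transcript length: its median was 1.20 for 1758 genes under 1.5 kb, -0.998 for 3941 genes of 1.5 to 3 kb, -1.72 for 4583 genes of 3 to 6 kb and -1.34 for 1587 longer genes. Mmp23 and Timp1, at 1.43 and 0.883 kb, are the 2 tested genes of the set with transcripts under 1.5 kb, and their log2 ratios were 0.76 and 0.82. Mmp14 and Mmp2, at 3.24 and 3.08 kb, had log2 ratios of -5.70 and -3.56. The part of transcript length in the evenness of Mmp23 and Timp1 was not tested.

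**Figure D5:**
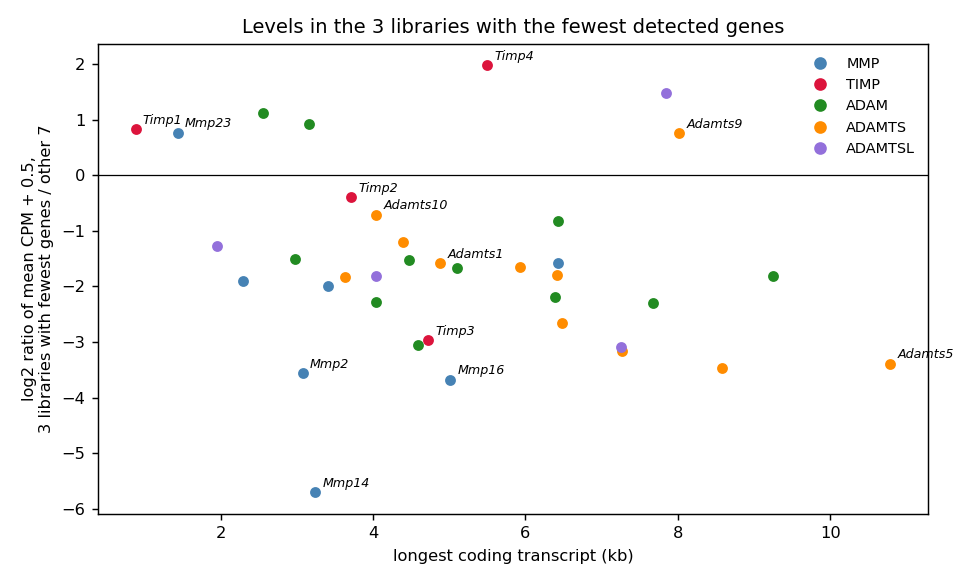
For the 37 tested genes, the log2 ratio of mean CPM (plus 0.5) in the 3 libraries with the fewest detected genes to that in the other 7, against the length of the longest coding transcript in kb, coloured by class. Timp1 and Mmp23 lie at the left, above 0, and Mmp14 is lowest at -5.70.

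Of 39 other genes that activate, inhibit, anchor or assist these enzymes, 24 were tested, and 0 were called higher and 0 lower in Eln-/- (0 at an unadjusted p under 0.05), with 12 positive and 12 negative fold changes and a median of -0.03. Reck, a membrane-anchored MMP inhibitor, was at 24.0 ± 13.1 CPM in the Eln+/+ libraries and 22.4 ± 29.4 CPM in the Eln-/- libraries. Bsg, which induces MMP expression in neighbouring cells, was at 964 ± 167 and 875 ± 171 CPM, and Furin, a convertase that activates membrane-type MMPs and ADAMs, at 8.35 ± 5.10 and 8.74 ± 8.29 CPM. Plat, the tissue plasminogen activator, was at 168 ± 133 and 81.4 ± 60.2 CPM (a log2 fold change of -1.05 with SE 1.17). Lrp1, a receptor that clears proteases bound to inhibitors, was at 9.10 ± 8.70 and 24.3 ± 33.0 CPM. It reached 82.9 CPM in Eln-/- replicate 1 and at most 24.4 CPM in the other libraries. Its unadjusted p was the smallest of this list, 0.149 in edgeR's test across all genes. The cysteine proteases Ctsb and Ctsl, lysosomal enzymes that also act on matrix, were at 225 ± 121 and 217 ± 26.1 CPM in Eln+/+ and at 156 ± 132 and 196 ± 43.8 CPM in Eln-/-.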

How the data were processed

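The authors deposited 1 table of estimated counts per gene and library, not scaled for library size; STAR, DESeq2 and mm10 are named per the submitters' processing notes (counting program and use of strand: not given in the sources used here). Counts were rounded to whole numbers. Gene ends in the table lay 1 base past those of GENCODE M21 and were reduced by 1, after which all 59 spans matched. Genes were filtered with edgeR's filterByExpr, scaled with TMM and compared by edgeR's quasi-likelihood test (glmQLFTest, two-sided, genotype as the only term, Benjamini-Hochberg over 15718 genes, threshold 0.05). The SE is the log2 fold change divided by the square root of F. The procedure was tested on simulated counts, with a pass condition set only at a spread between libraries well below that of these data. The common biological coefficient of variation here was 1.16, and recovery of changes at that spread is not given. R 4.3.3 ran edgeR 4.0.16, DESeq2 1.42.0 and, for the fit with sample weights, limma 3.58.1. Levels per kb use the longest coding transcript of the GENCODE basic set; promoters are from RefSeq. Floors use 3 counts and cover counting error only. Genes described library by library had a mean of at least 10 CPM or were listed by role (Timp1 to Timp4, Mmp2, Mmp9, Mmp14, Adam10, Adam17, Adamts1, Adamts5); others were named for abundance in their class or after their values were seen. Members, lists and rules were chosen with earlier results of these data known. Alternatives were DESeq2, RLE scaling, no filter, sample weights, a replicate block and left-out libraries.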

Additional observations from a re-analysis of the deposited data

Results flagged for a closer look

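Among 48 groups of 5 libraries examined, a single library lay far from the other 4 in 10, and 7 of the 10 were in Eln-/- replicate 1. Chance gives about 1 in 20 for independent, normally distributed groups. These groups are mostly uneven CPM values and come from the same 10 libraries, so the counts do not show an excess over chance. Of the 10, Mmp9 in Eln-/- replicate 1 carries no weight, since it had 3 counts there, the limit that a count of 0 allows, and 0 in the other 4. Without it the numbers are 9 and 6. In that library Mmp2 was at 407 CPM with the nearest Eln-/- value at 83.8 CPM, Mmp14 at 290 CPM with the nearest at 42.4 CPM, and Mmp9 at 0.0411 CPM with the others at 0. Adamts1 was at 566 CPM with the nearest Eln-/- value at 95.9 CPM, Adamts2 at 310 CPM with the nearest at 56.8 CPM, Adamts15 at 50.2 CPM with the nearest at 15.6 CPM, and Adam15 at 35.4 CPM with the nearest at 12.4 CPM.

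In Eln+/+ replicate 2, Timp3 was at 144 CPM with the nearest Eln+/+ value at 49.5 CPM. In Eln+/+ replicate 1, Timp4 was at 79.5 CPM with the nearest at 12.2 CPM, and the log2 TIMP to MMP ratio without Mmp23 was 5.28 with the nearest at 0.43.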

How the results depend on the processing

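The count of called genes of the set was 0 under all 17 alternatives, the smallest adjusted p of any of them being 0.536 (limma-voom with sample quality weights). Over all genes, edgeR called 0 (81 at an unadjusted p under 0.05), DESeq2 6 and limma with sample weights 7; leaving out 1 library gave 0 to 1 (1 without Eln-/- replicate 1), and leaving out both Eln+/+ replicate 2 and Eln-/- replicate 1, chosen after seeing the data, gave 1. The difference in TIMP to MMP ratio stayed within the spread between libraries throughout. Of 21 named genes tested, 6 kept their sign everywhere. Causes were not tested.

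The log2 fold change turned sign as follows. With sample weights it was -0.45 for Adam15, -1.75 for Adam17, -0.41 for Adam19, -0.37 for Adamts1, -0.10 for Adamts10, -0.41 for Mmp2 and 0.52 for Timp3. Adam15 was at -0.0037 without a filter, and Adam17 at -0.0045 with DESeq2 and -0.0042 with RLE scaling. Without the 3 libraries with the fewest genes, Adamts5 was at 0.19 and Timp3 at 0.33. Without both libraries named above, the values were -0.42 for Adam15, -0.46 for Adam19, -0.042 for Adamts1, -0.29 for Adamts10, -0.21 for Adamts2, -0.28 for Mmp14, -0.53 for Mmp2 and 0.27 for Timp3.

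Leaving out 1 library at a time gave -0.56 to 0.62 for Adam15, -0.61 to 0.64 for Adam17, -1.20 to 0.84 for Adam19, -0.17 to 1.04 for Adam9, -0.64 to 1.45 for Adamts1, -0.29 to 0.28 for Adamts10, -0.71 to 1.48 for Adamts2 and -1.16 to 0.43 for Adamts5. It gave -0.15 to 0.49 for Mmp11, -1.11 to 1.98 for Mmp14, -1.40 to 1.13 for Mmp2, -0.28 to 0.17 for Mmp23, -0.086 to 0.49 for Timp1, -0.56 to 0.72 for Timp3 and -1.72 to 0.15 for Timp4.

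Deviations of same-numbered libraries from their group means, over all genes, correlated at -0.56, 0.51, 0.12, -0.38 and 0.09. Such correlations cannot exclude a shared litter or day, since differences between libraries in detected genes also enter them. Whether the numbers pair libraries is not known. With a replicate block, 0 genes overall and 0 of the set were called, and the sign turned for Adam17 (-1.48), Adam19 (-0.94), Adamts10 (-0.10), Adamts2 (-0.24), Mmp14 (-1.37) and Mmp2 (-1.12).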
